A study of Homo sapiens with 30 samples.

Results

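The comparison set 6 arrays of cells given 7.5 cGy against 6 arrays of cells given 1 cGy, out of 30 arrays in all. The cells were GM15036 and GM15510, human lymphoblastoid lines long in use, that is, B cells transformed by Epstein-Barr virus. Each line gave 3 arrays at each of the 2 doses, and the arrays were chosen by the dose in their titles. Each line was measured against its own 1 cGy arrays, so that the line was a blocking factor. The question was which messenger RNAs moved the same way in both lines between these doses and which did not.

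The 4 groups used here were GM15036 at 1 cGy, GM15036 at 7.5 cGy, GM15510 at 1 cGy and GM15510 at 7.5 cGy, with 3 arrays each. Per the labels, both lines were suspension cultures in serum-supplemented MEM that received radiation from a caesium source. Doses carry the unit cGy in the sample labels and Gy in the design text, and cGy is used. How long after irradiation RNA was taken is not stated in the labels. No unirradiated cells were analysed here, so a change that 1 cGy already made cannot be seen. Each line is a single genotype, and whether the 3 arrays within a group stem from different cultures is not stated. The p-values then measure only the spread between these samples, which may be technical. The number of arrays limits the precision.

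RNA was measured on Affymetrix arrays with 22283 probe sets, of which 13331 passed the filter on low signal and were tested. The signals below are MAS5 signals scaled so that all arrays share a trimmed mean of 50.9, and a log2 change is the difference of mean log2(signal + 4). Unscaled brightness, the trimmed mean of an array, was 69.6 ± 10.2 (SD, n = 3) in GM15036 at 1 cGy and 32.4 ± 4.73 at 7.5 cGy. In GM15510 it was 69.4 ± 10.5 and 67.7 ± 21.7. For ACTB, whose probe sets at the 3-prime and 5-prime ends control for RNA integrity and labelling, the log2 ratio of the ends was 4.48 ± 0.204 at 1 cGy and 5.40 ± 0.154 at 7.5 cGy in GM15036, against 3.75 ± 0.490 and 3.78 ± 0.375 in GM15510. The arrays of GM15036 at 7.5 cGy were thus dimmer and had a higher ACTB ratio than its 1 cGy arrays, while the groups of GM15510 overlapped in both measures. The changes in GM15036 below move with those values, and counts with either measure as a covariate are given beside the main ones. Of 12 B cell markers, 11 were on the array and all 11 passed the filter, with a summed signal of 3170 to 3231 and 3302 to 3427 in GM15036 at 1 and 7.5 cGy, and of 2520 to 2652 and 2523 to 2836 in GM15510. Of the defining markers of other cells on the array, 0 of 6 for monocytes, 2 of 9 for T and NK cells, 1 of 2 for erythroid cells and 2 of 4 for fibroblasts passed the filter. Of longer lists, 6 of 15, 6 of 25, 1 of 7 and 7 of 16 did, and 0 of these were called for the mean or the interaction.

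Secreted and membrane proteins enter the endoplasmic reticulum through a channel, lose their signal peptide, fold with the help of chaperones and disulfide isomerases, and leave in vesicles for the Golgi. When folding lags, the unfolded protein response raises the chaperone genes, partly through the factors XBP1 and ATF6 acting at an element in their promoters. B cells lean on this pathway for surface MHC molecules and antibody. Radiation, in turn, is best known for activating p53, which raises CDKN1A, MDM2, BAX and FAS.

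The promoter element of that response, CCAAT followed 9 bases later by CCACG, is shown for HSPA5, a gene called in opposite directions in the lines, and for 3 genes of the same list that were not called in either. The sequences are RefSeq's for GRCh38.p14, written 5′ to 3′ on the gene's strand, with the element in capitals.
HSPA5: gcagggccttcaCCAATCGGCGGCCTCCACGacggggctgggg
XBP1: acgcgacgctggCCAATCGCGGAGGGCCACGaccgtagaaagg
CANX: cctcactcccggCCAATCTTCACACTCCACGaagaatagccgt
CALR: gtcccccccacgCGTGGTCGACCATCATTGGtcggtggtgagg
They lie at chr9:125241379-125241421 (minus strand), chr22:28800591-28800633 (minus), chr5:179698766-179698808 (plus) and chr19:12938372-12938414 (plus), each within the 250 bases before the gene's start. In CALR the element is on the opposite strand, so its complement is in capitals. Searched on both strands from 250 bases before to 50 after each start, the element was in 27 of 35116 windows (0.0769%) and in 10 of 6694 tested genes with a window (0.149%). It was in 6 of the 32 genes of the endoplasmic reticulum (ER) stress list that had a window, namely HSPA5, HSP90B1, CALR, CANX, XBP1 and CRELD2. Of 136 genes called opposite and higher in GM15510, 1 held it (0.735%), which was HSPA5. A match describes the letters and is not a measured site of binding.

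At an adjusted p of 0.05, more probe sets passed the test of a difference between the lines than the test of their mean change. With limma's unadjusted p under 0.05 the counts were closer, 1864 for the difference and 1772 for the mean. For the mean of both lines, 102 probe sets were higher at 7.5 cGy (0.765% of those tested) and 88 lower (0.66%), by limma with Benjamini-Hochberg adjustment at 0.05. The test of the difference between the lines, the interaction, called 412 probe sets (3.09%), and in 396 of them the lines had opposite signs. A large difference between the lines favours opposite signs, so that split follows in part from the test. Among these 396, 245 were lower in GM15036 and higher in GM15510 (1.84%), and 151 were higher in GM15036 and lower in GM15510 (1.13%). Over all 13331 probe sets the sign was the same in both lines in 49.67%. Within single lines, 169 probe sets were higher (1.27%) and 260 lower (1.95%) in GM15036, and 139 higher (1.04%) and 99 lower (0.743%) in GM15510. Only 31 probe sets were called in both lines, 11 of them with the same sign (0.0825%) and 20 with opposite signs (0.15%). With brightness as a covariate the interaction called 350 probe sets, and with the ACTB ratio 329, of which 279 and 296 were among the 412.

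**Figure D1:**
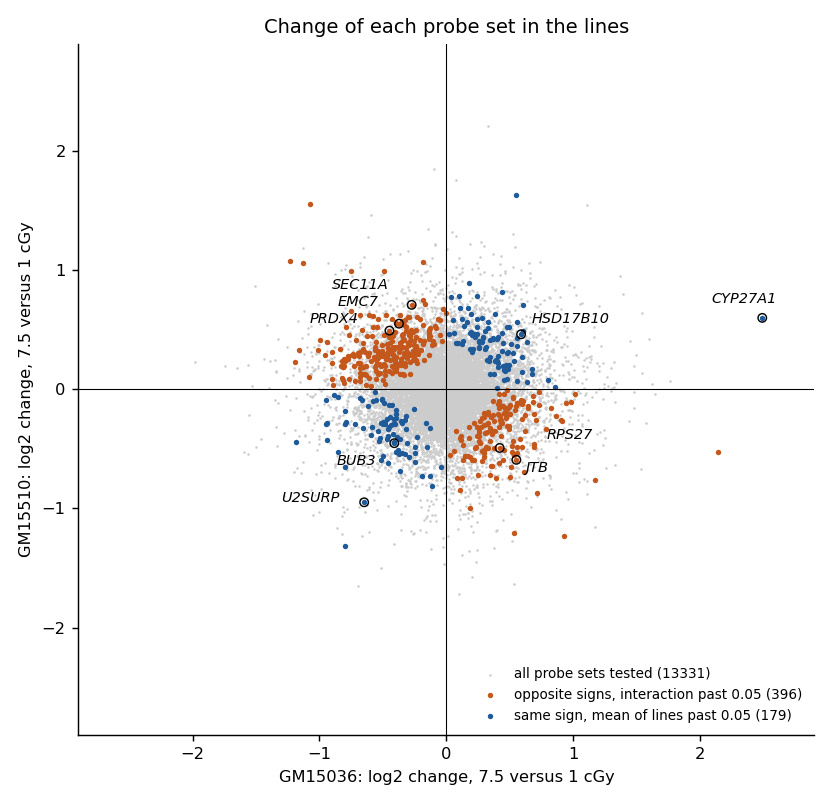
Each point is a probe set, with its log2 change from 1 to 7.5 cGy in GM15036 on the x axis and in GM15510 on the y axis. Orange points are the 396 with opposite signs past 0.05 for the interaction, blue points the 179 with the same sign past 0.05 for the mean of the lines, grey points the rest, and circles mark genes named in the text; the called points fill all 4 quadrants.

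The scaling matters for these counts and not equally for both directions. For median centring, 4 was added to unscaled signals, log2 was taken and each array was centred on its median. The median change of all probe sets was then −0.20 in GM15036 and −0.07 in GM15510 on the log2 scale. For the mean, 1 probe set was higher and 60 lower. A fixed 4 weighs more on dim arrays, and brightness in GM15036 was 69.6 at 1 cGy and 32.4 at the higher dose. Falls in GM15036 and calls lost under median centring can thus reflect this offset, and the setting cannot tell which do. In GM15036 that setting called 18 higher and 555 lower, in GM15510 3 higher and 4 lower, and of its 108 interaction calls 104 were higher in GM15510. When scaled arrays were centred on their median (centring after scaling), 17 were higher and 63 lower for the mean, 45 and 227 in GM15036, 36 and 47 in GM15510, and 144 of 198 interaction calls were higher in GM15510, against 254 of 412 in the main setting. All 108 and all 198 of those interaction calls were among the 412. Rises are therefore given below relative to the main scaling, and only 7 of the 238 calls within GM15510 were kept by median centring, PRDX4, HSPA5 and RPS24 not among them.

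Genes of the endoplasmic reticulum and the early secretory pathway were among those that fell in GM15036 and rose in GM15510, in a pattern that single genes show array by array. PRDX4, a peroxiredoxin of the ER lumen, had signals of 454, 503 and 476 at 1 cGy in GM15036 and 347, 350 and 350 at 7.5 cGy. In GM15510 its signals were 515, 511 and 532 at 1 cGy and 702, 757 and 740 at 7.5 cGy. The doses did not overlap in either line, and the order of the doses was reversed between them. PRDX4 fell by 0.45 (SE 0.074, adjusted p = 0.000413) on the log2 scale in GM15036 and rose by 0.49 (SE 0.074, adjusted p = 0.000257) in GM15510. Its interaction was 0.94 (SE 0.104, adjusted p = 2.94e-06), the same call under all 14 other settings and without any 1 of the 12 arrays.

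HSPA5, the main HSP70 chaperone of the ER, also called BiP, had signals of 1465, 1448 and 1374 at 1 cGy and 1246, 1152 and 1088 at 7.5 cGy in GM15036. In GM15510 its signals were 1242, 1240 and 1338 at 1 cGy and 1918, 1598 and 1745 at 7.5 cGy. Again the doses did not overlap in either line and their order was reversed. The interaction was 0.76 (SE 0.116, adjusted p = 0.000247), and it passed in every setting tried and without each array. The rise of 0.46 in GM15510 (adjusted p = 0.00191) kept its call without each array, whereas the fall of 0.30 in GM15036 (adjusted p = 0.0357) lost it without 1 cGy replicates a, b or c or 7.5 cGy replicates b or c, with adjusted p of up to 0.188 over all its settings.

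PDIA3, a disulfide isomerase that also serves MHC class I loading, had signals of 821, 847 and 869 at 1 cGy and 665, 611 and 664 at 7.5 cGy in GM15036. In GM15510 they were 664, 712 and 637 at 1 cGy and 837, 881 and 855 at 7.5 cGy. Its interaction was 0.74 (SE 0.110, adjusted p = 0.000161). EMC7, a subunit of the ER membrane protein complex, which inserts membrane proteins, had signals of 632, 583 and 553 and then 454, 461 and 445 in GM15036. In GM15510 it had 540, 567 and 554 and then 803, 805 and 832, and its interaction was 0.92 (SE 0.114, adjusted p = 9.59e-06). In both genes the doses stood apart without overlap in both lines, down in GM15036 and up in GM15510.

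SEC11A, a catalytic subunit of the signal peptidase, which cuts signal peptides, had signals of 1651, 1547 and 1445 at 1 cGy and 1178, 1348 and 1314 at 7.5 cGy in GM15036. In GM15510 it had 879, 929 and 939 at 1 cGy and 1827, 1340 and 1377 at 7.5 cGy. It rose by 0.71 (SE 0.100, adjusted p = 0.000195) in GM15510, while the change of −0.27 in GM15036 missed the threshold (adjusted p = 0.142), and the interaction was 0.98 (adjusted p = 0.00011). TMED10 and TMED5, cargo receptors of vesicles between ER and Golgi, had interactions of 0.85 (adjusted p = 0.000741) and 0.84 (adjusted p = 0.000691). SSR2, part of the translocon-associated complex at the import channel, had 0.76 (adjusted p = 0.00209), a call lost only with median centring (adjusted p = 0.0582). TRAM1, another protein of the channel, had 0.75 (adjusted p = 0.000345) for 1 probe set, and 0 of its 2 other probe sets passed (0.06 and 0.98). The interactions of PDIA3, EMC7, SEC11A, TMED10, TMED5 and TRAM1 passed under every alternative setting and without each array. The other probe set of TMED10 also passed (0.58, adjusted p = 0.0237), and those of SEC11A and TMED5 had the same sign without passing (0.54 and 0.67, adjusted p = 0.0698 and 0.121).

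**Figure D2:**
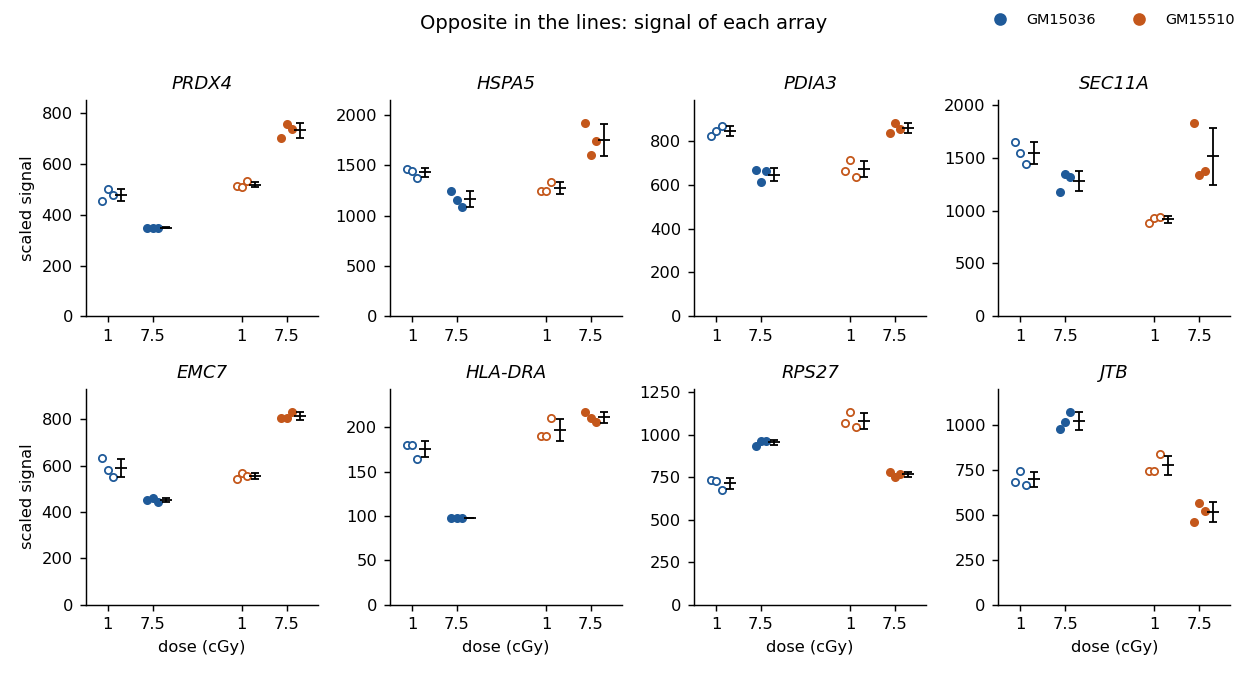
Each panel shows a gene's scaled signal on the y axis (linear, from 0) for every array at 1 cGy (open circles) and 7.5 cGy (filled circles) in GM15036 (blue) and GM15510 (orange), with mean ± SD of the 3 arrays in black. PRDX4, HSPA5, PDIA3, SEC11A and EMC7 went down in GM15036 and up in GM15510, HLA-DRA stood apart in GM15036 only, and RPS27 and JTB went the other way round.

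The gene lists place these genes among their neighbours. For all 8103 genes, 1 probe set each, 52 were higher for the mean (0.642%) and 57 lower (0.703%). In GM15036 85 were higher (1.05%) and 173 lower (2.14%), and in GM15510 82 were higher (1.01%) and 63 lower (0.777%). Opposite calls numbered 164 higher in GM15510 (2.02%) and 85 higher in GM15036 (1.05%). In the ER stress and amino acid response list, 4 of 36 genes were called opposite and higher in GM15510 (HSPA5, PDIA3, SDF2L1 and MANF) and 1 the other way (ATF4, the transcription factor of the amino acid response, interaction −0.67, adjusted p = 0.00447). SDF2L1, an ER chaperone cofactor (0.62), and MANF, a secreted ER stress protein (0.45), lost their calls without 6 and 9 of the 12 arrays, with adjusted p of up to 0.123 and 0.111. The calls of HSPA5 and PDIA3 did not depend on any 1 array, so the 4 became 2 without GM15036 1 cGy replicate b, GM15510 1 cGy replicate 1 or GM15510 7.5 cGy replicate 1. That of ATF4 was lost with median centring (adjusted p = 0.45). The list's median change was −0.01 in GM15036 and 0.14 in GM15510, against −0.01 and −0.01 for all genes. For the mean of the lines, 0 rose and 1 fell, which was SEL1L, a scaffold of ER-associated degradation (−0.30, adjusted p = 0.0175), and that call was lost without GM15036 1 cGy replicate b (adjusted p = 0.0549) or GM15510 7.5 cGy replicate 1 (adjusted p = 0.0529).

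Among the 6 genes of the list with the element, HSPA5 was the only one whose list probe set was called. A dimmer probe set of HSP90B1, the HSP90 of the ER, fell for the mean by 0.46 (adjusted p = 0.0424), a call lost without 8 of the 12 arrays (adjusted p of up to 0.161). CALR, a lectin chaperone, differed by 0.46 in GM15036 and 0.44 in GM15510 without passing in either (adjusted p = 0.433 and 0.553), and its 2 other probe sets had 0.01 and −0.06 in GM15036 and −0.29 and −0.32 in GM15510. CANX, its membrane-bound relative, had −0.18 and 0.11 (adjusted p = 0.447 and 0.778), and XBP1, a transcription factor of the response, had −0.09 and 0.17 (adjusted p = 0.795 and 0.609).

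Of 37 secretory pathway and Golgi genes, 4 were called opposite, all higher in GM15510 (SEC11A, TMED10, TMED5 and SSR2), and 0 passed for the mean. In GM15036 0 rose and 4 fell, and in GM15510 3 rose and 0 fell. The falls numbered 0 without GM15036 7.5 cGy replicate b and 2 without 1 cGy replicate b. The rises numbered 1 without any of GM15510 1 cGy replicates 1, 2 and 3 and 7.5 cGy replicates 1 and 3. The 4 opposite calls were 4 or 5 whichever array was left out. With brightness as a covariate there were 5.

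Antigen presentation genes showed the widest gap between the lines among the lists with at least 9 measured genes, with a median change of −0.16 in GM15036 and 0.30 in GM15510. Of 25 genes, 18 had opposite signs, 4 were higher in both and 3 lower in both, against 4070 opposite of 8103 for all genes. Interaction calls with opposite signs numbered 6, all higher in GM15510. HLA-DRA, the alpha chain of the MHC class II molecule DR, had signals of 181, 180 and 165 at 1 cGy in GM15036 and 97.3, 97.5 and 97.4 at 7.5 cGy. In GM15510 they were 190, 190 and 211 at 1 cGy and 218, 210 and 206 at 7.5 cGy. The arrays stood apart in GM15036 and overlapped in GM15510. HLA-DRA fell by 0.82 (SE 0.116, adjusted p = 0.000128) in GM15036, differed by 0.10 (adjusted p = 0.849) in GM15510, and had an interaction of 0.92 (adjusted p = 0.00111).

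HLA-DRB1, the partner chain, went from 1935, 2127 and 2073 to 3729, 2619 and 3007 in GM15510, a rise of 0.59 (SE 0.103, adjusted p = 0.00156). In GM15036 it went from 2001, 1933 and 1833 to 1702, 1930 and 1872, which overlap (−0.07, adjusted p = 0.845). TAP1, a subunit of the peptide transporter that supplies MHC class I, rose by 0.58 (adjusted p = 0.00176) in GM15510 and differed by −0.05 (adjusted p = 0.896) in GM15036. The MHC class I heavy chains HLA-C and HLA-B had interactions of 0.74 (adjusted p = 0.00269) and 0.53 (adjusted p = 0.0125), and their light chain B2M had 0.77 (adjusted p = 0.0076). HLA-DRB1 and TAP1 had interactions of 0.66 (adjusted p = 0.00685) and 0.63 (adjusted p = 0.00953). The call of HLA-B was lost without GM15036 1 cGy replicate a (adjusted p = 0.0565) and in 4 of 14 settings (up to 0.104), and that of TAP1 with median centring (adjusted p = 0.0727), and the other 4 kept theirs in every setting. Other probe sets passed too for HLA-DRA (0.91), B2M (0.53) and, in 2 of 3, HLA-C (0.96 and 1.04, against −0.20), and 0 of 2 did for HLA-B (0.30 and 0.43). HLA genes are near-identical copies of each other and highly variable between people, so a probe set can read several of them and read the lines unequally. The 4 rises in GM15510 became 2 without 1 cGy replicate 1 or 3 or 7.5 cGy replicate 1 or 3 of that line, and the 6 opposite calls became 4 without GM15036 1 cGy replicate a and 5 to 7 without any other array.

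Cholesterol synthesis genes differed between the lines in the same sense. Of 16 measured, 13 had opposite signs, against 4070 of 8103 for all genes. The list's median was −0.15 in GM15036 and 0.16 in GM15510. SQLE, the epoxidase that acts on squalene, went from 239, 235 and 216 to 145, 122 and 135 in GM15036, a fall of 0.77 (SE 0.134, adjusted p = 0.000713). In GM15510 it went from 226, 214 and 264 to 283, 238 and 229, which overlap, and the interaction was 0.85 (adjusted p = 0.00686), with 0.60 (adjusted p = 0.745) for its other probe set. FDPS, which makes farnesyl diphosphate, rose by 0.51 (adjusted p = 0.00285) in GM15510 and differed by −0.08 (adjusted p = 0.777) in GM15036, with an interaction of 0.59 (adjusted p = 0.00821). SC5D, a late desaturase of the pathway, had an interaction of 0.71 (adjusted p = 0.0316), lost without 8 of the 12 arrays (adjusted p of up to 0.119). With median centring 0 of the 16 were called opposite.

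Other genes called in both lines, down in GM15036 and up in GM15510, were LAPTM4B, a lysosomal membrane protein (its brighter called probe set, −0.71 and 0.42), SLC1A1, a glutamate transporter (−0.42 and 0.45), and ANXA6, a membrane-binding annexin (−0.35 and 0.46). RTN4, a reticulon that shapes ER tubules (−0.36 and 0.34), and HSD17B12, an ER enzyme of fatty acid elongation (−0.34 and 0.43), did the same, and 0 of the 2 other probe sets of RTN4 passed for the interaction (0.70 and 0.45). LAPTM4B, SLC1A1, ANXA6, RTN4 and HSD17B12 were named because they passed in both lines. In GM15036 those calls were lost without 0, 6, 4, 3 and 4 of the 12 arrays, in that order. In GM15510 they were lost without 5, 5, 0, 5 and 3. Of the 16 genes with 1 symbol that were called opposite in both lines, all 16 kept the interaction call without each array and 12 kept it under every setting. CCL4, a chemokine that NF-kB induces, had an interaction of 1.10 (adjusted p = 0.00491), CD83, a surface marker of activated B cells, 0.59 (adjusted p = 0.0056) and CD53, a leukocyte tetraspanin, 0.60 (adjusted p = 0.00426). CCL4 and CD53 passed in every setting, and CD83 in all but median centring (adjusted p = 0.0809).

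Ribosomal protein genes, which code for the proteins of the cytosolic ribosome, went mostly up in GM15036 and not in GM15510. Of 52 measured, 26 rose and 0 fell in GM15036, and 0 rose and 3 fell in GM15510 (RPL22, RPS24 and RPS27). The 4 other probe sets of RPL22 went against its fall or near 0 in GM15510 (0.27, 0.05, −0.06 and 0.34), and the last was called higher for the mean (0.32, adjusted p = 0.00771). The list's median change was 0.37 in GM15036 and −0.02 in GM15510. Of the 52, 24 were higher in both lines, 2 lower in both and 26 opposite, and 13 were called opposite, all of them higher in GM15036. For all 8103 genes, 1912 were higher in both lines, 2121 lower in both and 4070 opposite, with 249 called opposite. The 26 rises became 5 with brightness as a covariate, 6 with the ACTB ratio, 13 with quantile normalization, 5 with centring after scaling and 0 with median centring. In these 5 settings the list's median change in GM15036 was 0.32, 0.32, 0.25, 0.30 and 0.06, in that order. The rises numbered 9 to 12 without GM15036 1 cGy replicate b or c or 7.5 cGy replicate b or c. The 13 opposite calls became 10, 9, 14, 4 and 0 in the same 5 settings, and were 8 to 14 with single arrays left out, with 8 without GM15036 1 cGy replicate c or GM15510 1 cGy replicate 1.

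RPS27 had signals of 737, 729 and 677 at 1 cGy in GM15036 and 938, 967 and 965 at 7.5 cGy. In GM15510 it had 1069, 1137 and 1045 at 1 cGy and 782, 754 and 771 at 7.5 cGy. The doses did not overlap in either line and their order was reversed. RPS27 rose by 0.42 (SE 0.080, adjusted p = 0.00179) in GM15036 and fell by 0.49 (SE 0.080, adjusted p = 0.000707) in GM15510, with an interaction of −0.91 (adjusted p = 9.59e-06). RPS24 went from 759, 768 and 665 to 875, 880 and 871 in GM15036 (0.26, adjusted p = 0.0587) and from 972, 1001 and 933 to 734, 712 and 683 in GM15510, a fall of 0.45 (adjusted p = 0.00175). Its interaction was −0.71 (adjusted p = 0.000309). RPS15 (interaction −0.79, adjusted p = 0.00209) rose by 0.48 in GM15036, without a call in GM15510 (−0.31, adjusted p = 0.163). RPS25 had an interaction of −0.67 (adjusted p = 0.00909), and it was lost with median centring and with centring after scaling (adjusted p = 0.516 and 0.0662). With median centring the interactions of RPS27, RPS24 and RPS15 were not called either (adjusted p = 0.196, 0.378 and 0.308), and RPS24 in GM15036 changed sign.

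Of the same 52 genes, 10 were higher for the mean of both lines and 0 lower. RPS18 had 2562, 2469 and 2215 at 1 cGy and 3346, 3438 and 3339 at 7.5 cGy in GM15036, and 1677, 1952 and 1752 and then 2252, 2088 and 2338 in GM15510. The doses stood apart in both lines, in the same direction. Its mean change was 0.40 (SE 0.063, adjusted p = 0.00105). RPS19 also had 0.40 (SE 0.065, adjusted p = 0.00107), from 0.67 in GM15036 and 0.13 in GM15510, where its arrays overlapped (adjusted p = 0.636), and its interaction of −0.54 passed (adjusted p = 0.0137) except without GM15036 1 cGy replicate c (adjusted p = 0.0652) and in 4 of 14 settings. RPL10A rose by 0.34 (adjusted p = 0.0209), lost without 4 of the 12 arrays, and RPS10 by 0.32 (adjusted p = 0.0104), kept without each array but with an adjusted p of 0.872 under quantile normalization. The count of 10 was 3 without any of GM15036 1 cGy replicate b, GM15510 1 cGy replicate 3 and GM15510 7.5 cGy replicate 1, and 4 or 5 without GM15036 1 cGy replicate c, 7.5 cGy replicate b or c or GM15510 1 cGy replicate 1. It was 2 with quantile normalization and with brightness as a covariate, and 0 with median centring, where the list's median was −0.00025 against 0.17 in the main setting. Many ribosomal protein genes have processed pseudogenes of nearly the same sequence, which a probe set can also read.

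Ribosomal protein transcripts start within a run of pyrimidines, which the start sites show in these examples. The sequences hold 14 bases before and 10 from the start on, as RefSeq's GRCh38.p14 has them, 5′ to 3′. Capitals mark the first CTTT between 5 bases before the start and 10 after it. RPS6 (0.31, adjusted p = 0.0296, lost without 7 of the 12 arrays) and RPS10 were higher for the mean, and RPS27 and RPS24 opposite in the lines.
RPS6: agcggaagttggccctCTTTtccg
RPS10: cgcgcatgctccttcCTTTccagc
RPS27: tttccgctttcgctcCTTTccggc
RPS24: ggcgaatcgtggttctCTTTtcct
They lie at chr9:19380227-19380250 (minus strand), chr6:34426060-34426083 (minus), chr1:153990748-153990771 (plus) and chr10:78033849-78033872 (plus). From 5 bases before the start to 10 after it, CTTT was on the gene's strand in 27 of 46 ribosomal protein genes with a window (58.7%), in 6.57% of tested genes and in 6.71% of all windows. On the other strand it was in 2.17%, 2.73% and 4.3%. It was in 6 of the 9 with a window that were higher for the mean and in 7 of the 11 called opposite.

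Genes of oxidative phosphorylation, the respiratory chain and ATP synthase, had a median of 0.15 in GM15036 and −0.08 in GM15510. Of 61, 35 had opposite signs and 5 were called opposite, against 4070 and 249 of 8103 for all genes. ATP5ME, a subunit of ATP synthase, went from 194, 148 and 205 to 290, 280 and 311 in GM15036, a rise of 0.69 (SE 0.125, adjusted p = 0.00108), and from 175, 170 and 178 to 162, 152 and 136 in GM15510 (−0.21, adjusted p = 0.548). Its interaction was −0.90 (adjusted p = 0.00232). COX6B1, of cytochrome c oxidase, had −0.85 (adjusted p = 0.00698), and NDUFS6, of complex I, −0.99 (adjusted p = 0.0107), a call lost without GM15036 7.5 cGy replicate c (adjusted p = 0.0568). SDHA, of complex II, and ATP5F1B, the catalytic beta subunit of ATP synthase, went the other way, with 0.69 and 0.46, and lost their calls without 3 and 9 of the 12 arrays (adjusted p of up to 0.11 and 0.196 over all settings). With median centring 0 of the 61 were called opposite, and the GM15036 median was −0.13.

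Outside the lists, JTB, a transmembrane protein with a role in cell division, rose from 684, 744 and 669 to 978, 1022 and 1077 in GM15036 and fell from 749, 747 and 840 to 461, 569 and 521 in GM15510. The interaction was −1.14 (SE 0.159, adjusted p = 6.74e-05), and 0 of its 2 other probe sets passed (−0.27 and −0.18). ODC1, the rate-limiting enzyme of polyamine synthesis, rose by 0.29 in GM15036 and fell by 0.30 in GM15510 (interaction −0.60, adjusted p = 0.00115), and URI1, a prefoldin-like protein, by 0.45 and 0.51 (−0.97, adjusted p = 0.000712). The other probe set of URI1 had −0.39 and −0.56 in the lines (interaction −0.17, adjusted p = 0.93). With median centring the interactions of JTB, URI1 and ODC1 had adjusted p of 0.112, 0.159 and 0.526, and ODC1 in GM15036 changed sign. In the antioxidant and iron list, which holds FTL, 3 of 23 genes were called for the interaction, 2 of them with opposite signs. FTL, the ferritin light chain, which stores iron, went from 1001, 1031 and 1118 to 1687, 2085 and 1966 in GM15036, a rise of 0.86 (SE 0.100, adjusted p = 1.02e-05). In GM15510 it went from 1454, 1326 and 1171 to 1333, 1359 and 1301, which overlap (0.02, adjusted p = 0.972), and the interaction was −0.84 (adjusted p = 0.000642). EIF3F, a translation initiation factor, did alike (0.64 and −0.14, interaction −0.78, adjusted p = 0.00143). Of the 31 genes in its list of translation factors, 3 were called opposite, all higher in GM15036.

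The widest opposite changes were those of MYL10, ATP13A3, TAS2R14 and SEMA5A, with mean levels of 4.31, 3.88, 3.77 and 3.97 on the log2 scale, below the median of 5.37 of all tested probe sets, whereas others, such as JTB (9.48) and STARD7 (8.50), were above it. MYL10 had 3.94, 9.66 and 6.39 at 1 cGy and 29.6, 64.7 and 37.8 at 7.5 cGy in GM15036, and 12.1, 17.8 and 14.2 and then 13.1, 7.57 and 6.88 in GM15510 (interaction −2.66, adjusted p = 0.0224). Next on that side were DAZAP1 (−1.59), AHR (−1.30), INHBC (−1.24), TCF3 (−1.17 for each of 2 probe sets), JTB and STARD7 (−1.14). On the other side were ATP13A3 (2.63), TAS2R14 (2.31), SEMA5A (2.19), ITM2B (1.74), LAPTM4B (1.49 for its dimmer called probe set), ROBO1 (1.48), FGL2 (1.42) and RDH11 (1.41). Of these 16 probe sets, 7 kept the call without each array, and 2, LAPTM4B and RDH11, kept it under every setting. Other probe sets of these genes often differed from the one named. They had interactions of −0.12 for MYL10, 0.27 for ATP13A3, 0.65 for INHBC, 0.64 for ITM2B, and 0.03 and 0.85 for RDH11, and none of these passed. Of the 8 further probe sets of TCF3, 1 passed (−0.79, adjusted p = 0.0441). RDH11, a retinol dehydrogenase, had 193, 195 and 413 at 1 cGy and 125, 116 and 131 at 7.5 cGy in GM15036, and 84.9, 106 and 96.2 and then 105, 120 and 168 in GM15510. STARD7, a lipid transfer protein of mitochondria, had an interaction of −1.14 (adjusted p = 0.000978), lost with median centring (adjusted p = 0.104).

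Among calls at an adjusted p of 0.05, changes that agreed in sign were fewer. The median size of all changes called for the mean was 0.38 on the log2 scale. Of the 190 probe sets called for the mean, 179 had the same sign in both lines. A large mean favours equal signs, so that split follows in part from the test. In 84 the change was also called in GM15036 alone, in 48 in GM15510 alone, in 11 in both and in 47 in neither. Arrays of the doses did not overlap within either line in 44 of the 102 higher (0.33% of all tested) and 48 of the 88 lower (0.36%). These shares cover only called probe sets. How many of all tested probe sets lacked overlap is not given, so these counts cannot be weighed against it. The fit that leaves the difference between the lines in the residual spread, with line and dose as additive terms on the 12 arrays, called 3 higher and 0 lower, which were FBXW12, DBT and a probe set with no single symbol. At an unadjusted p under 0.05 that fit had 763 higher and 855 lower of 13331 tested, with no allowance for the number of tests. The counts of 102 and 88 rest on single arrays as well. They were 44 and 33 without GM15510 1 cGy replicate 3, 46 and 33 without its 7.5 cGy replicate 1, 52 and 39 without its 1 cGy replicate 1, and 48 and 33 without GM15036 1 cGy replicate b. They were 50 and 51 without GM15036 1 cGy replicate c, 54 and 46 without its 7.5 cGy replicate b, 57 and 52 without its 7.5 cGy replicate c, and 128 and 133 without its 7.5 cGy replicate a. With brightness as a covariate they were 23 and 16, and with the ACTB ratio 39 and 47.

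Among the genes that fell, BUB3, a spindle checkpoint protein that holds back anaphase, had signals of 416, 427 and 378 at 1 cGy and 336, 311 and 271 at 7.5 cGy in GM15036. In GM15510 it had 397, 386 and 430 at 1 cGy and 270, 349 and 271 at 7.5 cGy. The 6 arrays at 7.5 cGy were below the 6 at 1 cGy. It fell by 0.43 (SE 0.083, adjusted p = 0.0051) for the mean, with −0.41 and −0.45 in the lines, and 0 of its 3 other probe sets passed (−0.37, −0.04 and −0.09). HNRNPK, an RNA-binding protein of splicing and transcription, went from 398, 533 and 475 to 373, 352 and 340 in GM15036 and from 600, 521 and 574 to 411, 438 and 432 in GM15510, a fall of 0.39 (SE 0.075, adjusted p = 0.0045). Its other probe set had −0.12 (adjusted p = 0.459), with −0.29 in GM15036 and 0.05 in GM15510. PTGES3, the HSP90 co-chaperone p23, went from 567, 587 and 515 to 472, 468 and 399 in GM15036 and from 1043, 1061 and 994 to 805, 877 and 779 in GM15510. It fell by 0.32 (SE 0.060, adjusted p = 0.00387). In these 3 genes no array at 7.5 cGy reached the 1 cGy arrays of its line. Genes were named for such a lack of overlap or for passing in both lines, so it is no separate support. The calls for the mean of BUB3, HNRNPK and PTGES3 held without each array, and in the additive fit they had adjusted p of 0.0597, 0.0604 and 0.0813. With brightness as a covariate HNRNPK had adjusted p = 0.0687.

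U2SURP, a spliceosome-associated protein, had 99.1, 125 and 92.0 at 1 cGy and 62.1, 50.1 and 88.6 at 7.5 cGy in GM15036, and 94.8, 93.3 and 126 and then 51.9, 73.2 and 36.4 in GM15510. It fell by 0.80 (SE 0.161, adjusted p = 0.00799). Neither of the remaining 2 probe sets passed (−0.11 and −0.25). SNRPE, a core protein of spliceosomal RNPs, fell by 0.54 (adjusted p = 0.0102), PRKAR1A, a regulatory subunit of protein kinase A, by 0.46 (adjusted p = 0.00387) and SDCBP, the scaffold syntenin, by 0.53 (adjusted p = 0.00146). TMEM123, a membrane protein, went from 266, 292 and 316 to 178, 126 and 150 in GM15036, and from 447, 393 and 321 to 313, 319 and 312 in GM15510. Its fall of 0.61 (adjusted p = 0.004) came from −0.94 in GM15036 and −0.28 in GM15510 (adjusted p = 0.52). U2SURP, SNRPE, PRKAR1A, SDCBP and TMEM123 kept the call without each array. The other probe set of SNRPE had −0.02 (adjusted p = 0.972), and those of PRKAR1A had −0.25 and 0.05 (adjusted p = 0.171 and 0.944), so these falls rest on 1 probe set each. PRKDC, the catalytic subunit of the DNA-dependent kinase that joins broken ends, fell by 0.39 (SE 0.081, adjusted p = 0.0102), from 170, 174 and 211 to 129, 126 and 132 in GM15036 and from 186, 180 and 172 to 135, 161 and 147 in GM15510. Its call was kept without each array and lost with brightness as a covariate (adjusted p = 0.0911), and 0 of its 2 other probe sets passed (0.05 and −0.73, adjusted p = 0.957 and 0.39). With brightness as a covariate, U2SURP, SNRPE and TMEM123 had adjusted p of 0.0852, 0.0554 and 0.0607.

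Among the genes that rose, HSD17B10, a mitochondrial dehydrogenase that is also part of mitochondrial RNase P, had 528, 388 and 436 at 1 cGy and 588, 659 and 790 at 7.5 cGy in GM15036. In GM15510 it had 355, 407 and 473 at 1 cGy and 533, 577 and 586 at 7.5 cGy. It rose by 0.53 (SE 0.086, adjusted p = 0.00107). DBT, a subunit of the branched-chain ketoacid dehydrogenase, went from 589, 623 and 679 to 767, 779 and 821 in GM15036 and from 396, 382 and 374 to 551, 544 and 557 in GM15510, a rise of 0.42 (SE 0.056, adjusted p = 0.000104). FBXW12, an F-box protein, went from 507, 473 and 497 to 714, 641 and 655 in GM15036 and from 230, 230 and 227 to 352, 318 and 292 in GM15510, a rise of 0.46 (SE 0.078, adjusted p = 0.00184). In these 3 genes every array at 7.5 cGy lay above the 1 cGy arrays of its line. This too follows in part from how genes were picked for naming and is no separate support. RSRC2, a serine and arginine rich protein, rose by 0.50 (adjusted p = 0.00422), NSUN5P1, a pseudogene of an RNA methyltransferase, by 0.56 (adjusted p = 0.00387), and TCF25, a protein of ribosome quality control, by 0.40 (adjusted p = 0.00387). The other probe set of RSRC2 had −0.12 (adjusted p = 0.485), that of TCF25 −0.0023 (adjusted p = 0.998) and that of NSUN5P1 0.53 (adjusted p = 0.0759). HSD17B10, DBT, FBXW12, RSRC2, NSUN5P1 and TCF25 held without each array, and with median centring they had adjusted p of 0.151, 0.252, 0.217, 0.188, 0.13 and 0.369.

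Probe sets marked _x_at, which can read more than 1 transcript, made up 43 of the 102 higher for the mean (42.2%), 7 of the 88 lower (7.95%) and 12.5% of those tested. DBT, FBXW12 and NSUN5P1 were among them. The other probe set of DBT had a mean change of 0.08 and was not called. The median level was 9.13 on the log2 scale for the higher, 7.22 for the lower and 5.37 for all tested probe sets.

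**Figure D3:**
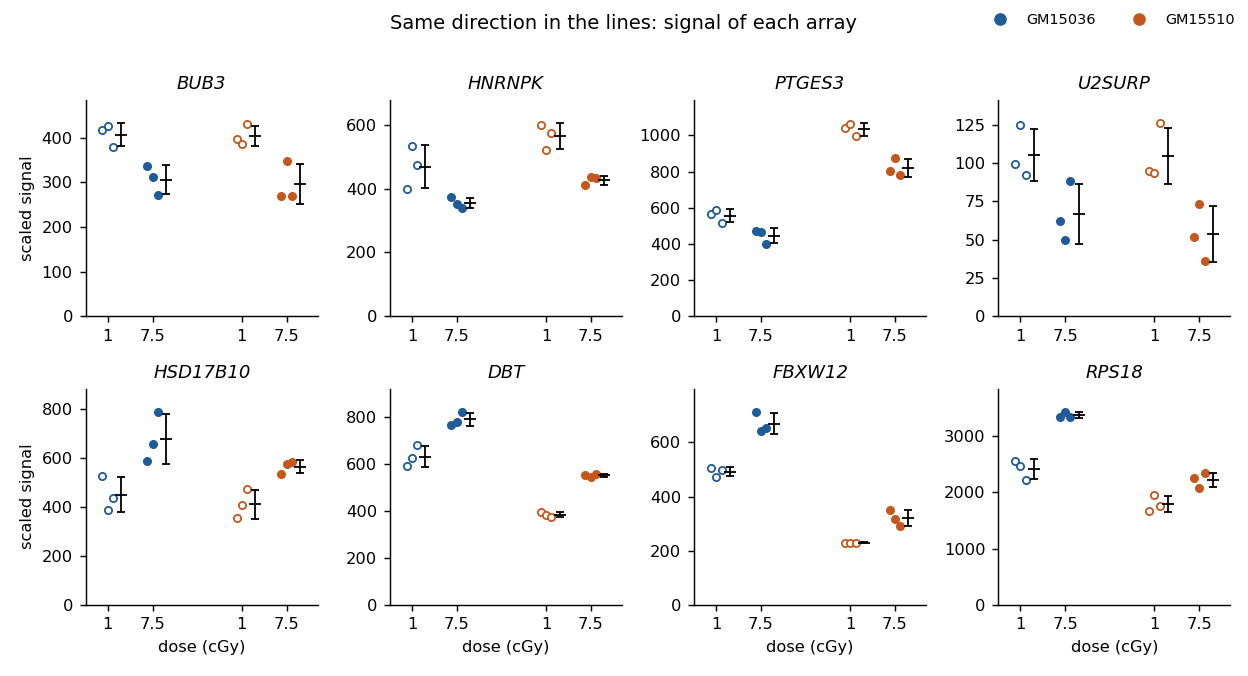
Each panel shows a gene's scaled signal on the y axis (linear, from 0) for every array at 1 cGy (open circles) and 7.5 cGy (filled circles) in GM15036 (blue) and GM15510 (orange), with mean ± SD of the 3 arrays in black. BUB3, HNRNPK, PTGES3 and U2SURP were lower and HSD17B10, DBT, FBXW12 and RPS18 higher at 7.5 cGy in both lines, with no overlap between the doses of a line. The rule for naming genes favoured such a lack of overlap.

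By the rule for named genes, 15 genes were taken on each side for the mean. Of the 15 highest, ZDHHC14, a palmitoyltransferase, had the largest change, 1.09 (SE 0.270, adjusted p = 0.0334), with 61.0, 45.8 and 36.6 and then 76.7, 72.3 and 62.2 in GM15036, and 8.16, 3.59 and 5.34 and then 40.2, 23.5 and 17.2 in GM15510. Of the 15 lowest, MIA3, a receptor for collagen export from the ER, had the largest change, −0.81 (SE 0.210, adjusted p = 0.0419). Both calls rested on single arrays and were lost without 8 and 10 of the 12 arrays (adjusted p of up to 0.349 and 0.175 over all settings). Without each array, 8 of the 15 highest and 6 of the 15 lowest kept their calls. With brightness as a covariate 6 and 3 did, with the ACTB ratio 9 and 7, and with median centring 0 and 15.

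The p53 response genes did not pass for the mean. Of 26 p53 targets measured, 0 rose and 0 fell, with 10 higher in both lines, 2 lower in both and 14 opposite, and a median of 0.09 in GM15036 and 0.04 in GM15510. Of all 8103 genes, 1912 were higher in both lines, 2121 lower in both and 4070 opposite. At an unadjusted p under 0.05 for the mean, 4 of the 26 were higher and 0 lower, against 446 and 630 of all 8103 genes. CDKN1A, the cyclin-dependent kinase inhibitor p21, had signals of 202, 184 and 150 at 1 cGy and 219, 241 and 209 at 7.5 cGy in GM15036. In GM15510 it had 122, 164 and 151 at 1 cGy and 176, 205 and 177 at 7.5 cGy. All arrays at 7.5 cGy lay above the 1 cGy arrays of their line, and the change was 0.34 (SE 0.100, adjusted p = 0.0836). BAX, which permeabilises mitochondria in apoptosis, went from 104, 100 and 100 to 128, 138 and 129 in GM15036 and from 40.6, 36.8 and 43.3 to 45.8, 50.1 and 50.8 in GM15510, also without overlap (0.31, SE 0.118, adjusted p = 0.202). CDKN1A passed with array weights (adjusted p = 0.0387) and BAX with brightness as a covariate (adjusted p = 0.0153), and neither passed in any other setting tried. MDM2, the ubiquitin ligase of p53, had 0.14 (SE 0.154, adjusted p = 0.791), and GADD45A, a stress-induced inhibitor of growth, 0.13 (SE 0.171, adjusted p = 0.829). PMAIP1, the BH3-only protein NOXA, fell by 0.57 (adjusted p = 0.0258) in GM15510, differed by 0.30 (adjusted p = 0.281) in GM15036 and had an interaction of −0.87 (adjusted p = 0.00802). Its other probe set had −0.26 in GM15510, −0.47 in GM15036 and an interaction of the other sign (0.21, adjusted p = 0.808). FAS, the death receptor, had −0.46 and 0.35 and an interaction of 0.81 (adjusted p = 0.037), a call lost without 8 of the 12 arrays (adjusted p of up to 0.135). Of its 3 other probe sets, 1 passed (−0.73 and 0.20, interaction 0.93, adjusted p = 0.00115), and the rest had the same sign (0.76 and 0.40, adjusted p = 0.1 and 0.716).

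Of the other panel genes, EGR1, an immediate-early factor, had −0.42 (SE 0.146, adjusted p = 0.158), JUN −0.36 (adjusted p = 0.492), MYC −0.07 (adjusted p = 0.803), PCNA, the sliding clamp of replication, −0.01 (adjusted p = 0.975), ATF3 −0.15 (adjusted p = 0.82) and HMOX1, heme oxygenase, 0.08 (adjusted p = 0.953). DDB2 and XPC, damage sensors of nucleotide excision repair, had 0.04 and 0.10 (adjusted p = 0.946 and 0.864). CYP27A1, a mitochondrial sterol hydroxylase, passed for the mean (adjusted p = 0.00422), but most of its signals were near the 25th percentile of all values, 3.41, so the size of its change, 1.54 with 4 added, was 1.95 with 1 added and 0.91 with 16. Its signals were 7.50, 4.21 and 1.38 at 1 cGy and 40.9, 37.9 and 43.7 at 7.5 cGy in GM15036, and 4.28, 3.33 and 4.05 and then 23.6, 2.63 and 5.33 in GM15510. The arrays stood apart in GM15036 (2.49, adjusted p = 0.000425) and overlapped in GM15510 (0.60, adjusted p = 0.631), where a single array was high. The mean call was lost with brightness as a covariate (adjusted p = 0.0613).

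Of 36 DNA repair genes, 0 rose and 2 fell for the mean, PRKDC and MSH6, a mismatch repair protein (−0.29, adjusted p = 0.0348), and MSH6 lost its call without 11 of the 12 arrays (adjusted p of up to 0.216 over all settings). Of 44 G2/M and mitosis genes, 0 rose and 1 fell, NUSAP1, a spindle protein named after its value was seen (−0.22, adjusted p = 0.0477). In 11 of the 12 fits without 1 array, all but that without GM15510 7.5 cGy replicate 3, 0 genes of the list fell, and the other probe set of NUSAP1 had 0.21 (adjusted p = 0.644). The G2/M list had a median of −0.11 in GM15036 and 0.03 in GM15510. Of 39 G1/S and replication genes, 0 passed for the mean, and 26 had the same sign in both lines, against 4033 of 8103 for all genes. Of 21 heat shock genes and 29 proteasome genes, 0 passed for the mean and 0 for the interaction. Of 41 splicing factors, 2 rose, HNRNPH3 (0.36, adjusted p = 0.019) and U2AF1 (0.30, adjusted p = 0.0252), and 1 fell, SNRPE. The first 2 of these were lost without 4 and 9 of the 12 arrays. The median changes for all genes were −0.01 in each line.

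**Figure D4:**
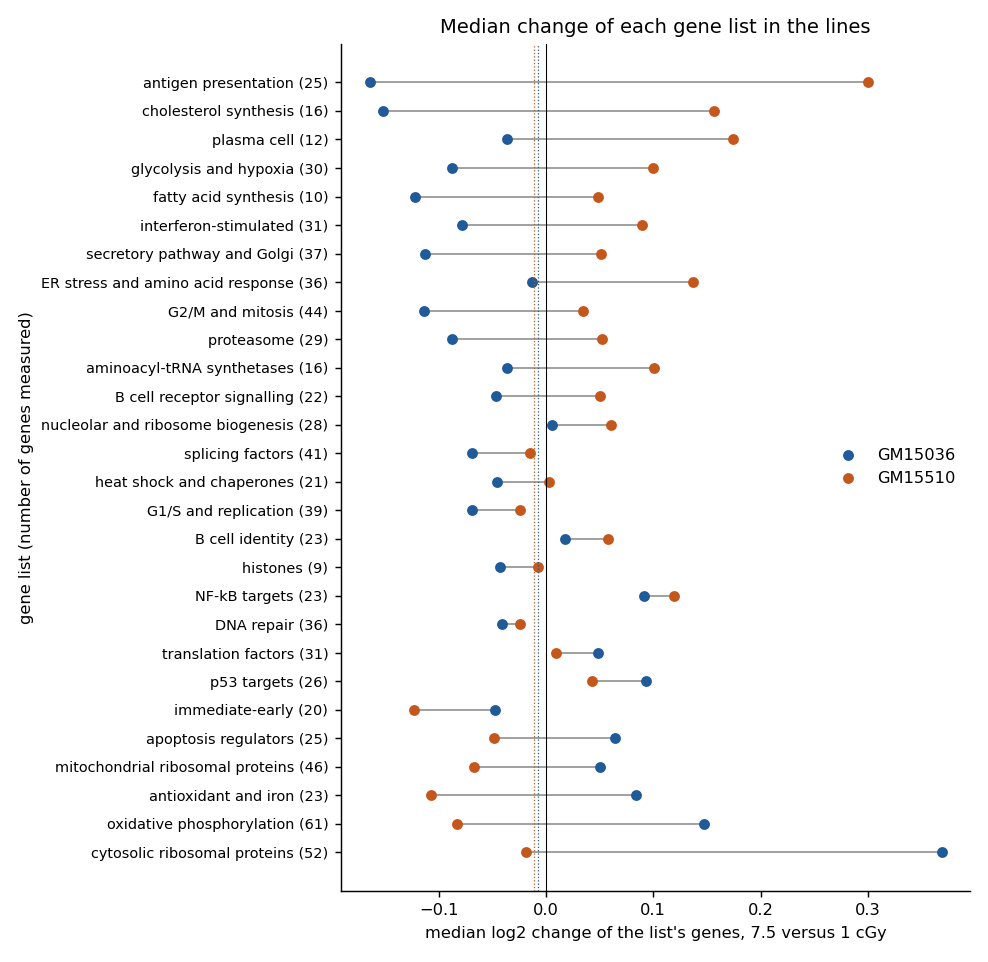
Each row is a gene list with at least 9 measured genes (number in brackets), with the median log2 change from 1 to 7.5 cGy of its genes in GM15036 (blue) and GM15510 (orange) on the x axis, joined by a grey line, and dotted lines at the medians of all genes. The widest gaps were in antigen presentation (−0.16 and 0.30), cholesterol synthesis (−0.15 and 0.16) and, the other way round, cytosolic ribosomal proteins (0.37 and −0.02).

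At the other doses, which share the 1 cGy arrays and so are given side by side only, PRDX4 and HSPA5 did not hold one direction within GM15036. PRDX4 in GM15036 differed from 1 cGy by −0.27, 0.28, −0.45 and −0.24 at 2.5, 5, 7.5 and 10 cGy, and in GM15510 by 0.03, 0.30, 0.49 and 0.03. HSPA5 had −0.21, 0.11, −0.30 and −0.19 in GM15036 and 0.36, 0.48, 0.46 and −0.13 in GM15510. RPS27 had −0.17, −0.15, 0.42 and 0.14 in GM15036 and −0.73, −0.46, −0.49 and −0.55 in GM15510, where the mean at 1 cGy was above that at all other doses. BUB3 was below 1 cGy at every dose in both lines, with −0.27, −0.26, −0.41 and −0.44 in GM15036 and −0.25, −0.19, −0.45 and −0.52 in GM15510. HSD17B10 had its highest value at 7.5 cGy in both lines, with 0.06, 0.13, 0.59 and −0.01 in GM15036 and 0.07, 0.29, 0.46 and 0.10 in GM15510. RPS18 had −0.12, −0.12, 0.48 and 0.25 in GM15036 and 0.52, 0.28, 0.31 and −0.30 in GM15510.

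**Figure D5:**
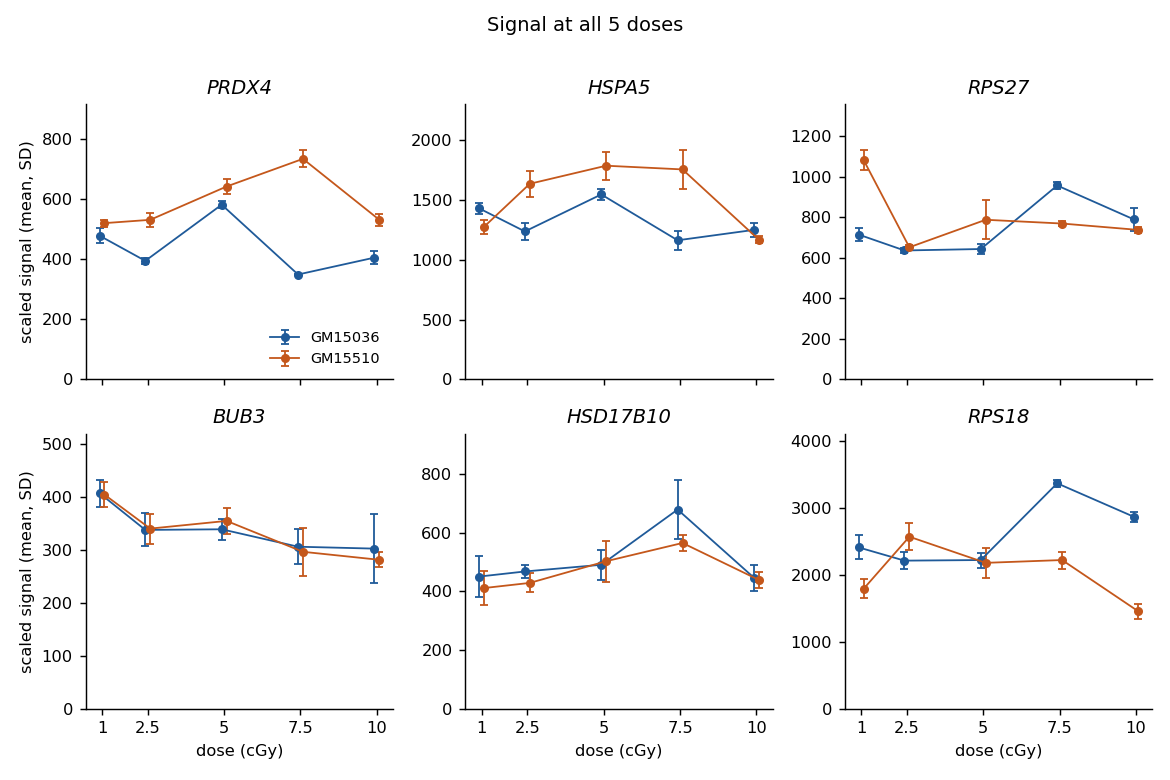
Each panel shows a gene's mean scaled signal ± SD of 3 arrays on the y axis (linear, from 0) at 1, 2.5, 5, 7.5 and 10 cGy on the x axis in GM15036 (blue) and GM15510 (orange). PRDX4 had its peak at 5 cGy for GM15036 but at 7.5 cGy for GM15510, BUB3 was highest at 1 cGy in both lines, and HSD17B10 was highest at 7.5 cGy in both.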

How the data were processed

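Gene expression was measured on 30 Affymetrix arrays, 12 of which form the comparison. The deposited values are MAS5 signal intensities on a linear scale, with MAS5 named per the submitters' processing notes and no version stated there. Total RNA was labelled with biotin, per the labels' protocols. The deposited intensities had not been brought to a common level, since the trimmed means (2nd to 98th percentile) of the arrays differed 7.91-fold, from 14.1 to 112. Each array was scaled to a trimmed mean of 50.9, 4 was added and log2 taken. Probe sets with a mean above the 40th percentile were kept, without 68 control probe sets. Of all 22283 probe sets, 19071 had 1 gene symbol in the platform annotation, 1043 several and 2169 none, and only those with 1 symbol were named.

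limma 3.58.1 in R 4.3.3 fitted the means of the 10 groups of line and dose over all 30 arrays (20 residual and 12.3 prior degrees of freedom, eBayes with trend). All 10 groups shared one estimate of the spread. Contrasts were the mean of both lines, each line, and GM15510 minus GM15036 (interaction), two-sided, with Benjamini-Hochberg adjustment over all 13331 probe sets and a threshold of 0.05. The fit was tested on simulated data. Lists used 1 probe set per gene, the brightest one, and _x_at or _s_at sets served only where a gene had no other.

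Genes were named by a rule. It took the 15 highest and 15 lowest for the mean with the same sign and no overlap within either line, the 8 largest opposite interactions in each direction, up to 4 and 2 called members of each list, and a fixed panel. Genes called in both lines, list members beyond these numbers and other probe sets were added after their values were seen. The members and lists were chosen with earlier results of these data known. Alternatives were quantile normalization, median centring, centring after scaling, other pseudocounts and filters, other variance models, array weights, a replicate block, brightness or the ACTB ratio as a covariate, an additive fit and leaving out each array. Within a group, arrays correlated at 0.937 to 0.970 and no pair held identical values.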

Additional observations from a re-analysis of the deposited data

Results flagged for a closer look

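For the following probe sets the change from 1 to 7.5 cGy differed between the lines by limma's test of the interaction at an adjusted p of 0.05, and each value is the log2 change in GM15510 minus that in GM15036. Of the 61, 21 kept the call under every alternative and without each array.

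In the ER and secretory pathway the values were 0.94 for PRDX4, 0.76 for HSPA5, 0.74 for PDIA3, 0.62 for SDF2L1, 0.45 for MANF and −0.67 for ATF4. They were 0.98 for SEC11A, 0.92 for EMC7, 0.85 for TMED10, 0.84 for TMED5, 0.76 for SSR2 and 0.75 for TRAM1. In antigen presentation they were 0.92 for HLA-DRA, 0.66 for HLA-DRB1, 0.74 for HLA-C, 0.53 for HLA-B, 0.77 for B2M and 0.63 for TAP1. In cholesterol synthesis they were 0.85 for SQLE, 0.71 for SC5D and 0.59 for FDPS.

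Ribosomal protein genes had −0.91 for RPS27, −0.79 for RPS15, −0.71 for RPS24, −0.67 for RPS25 and −0.54 for RPS19. EIF3F had −0.78. Oxidative phosphorylation genes had −0.99 for NDUFS6, −0.90 for ATP5ME, −0.85 for COX6B1, 0.69 for SDHA and 0.46 for ATP5F1B.

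Among genes of other lists or of none, values above 0 were 1.10 for CCL4, 0.59 for CD83, 0.60 for CD53, 0.81 for FAS, 0.70 for RTN4, 0.77 for HSD17B12, 0.81 for ANXA6, 0.87 for SLC1A1 and 1.13 and 1.49 for 2 probe sets of LAPTM4B. Wider ones were 1.41 for RDH11, 1.42 for FGL2, 1.48 for ROBO1, 1.74 for ITM2B, 2.19 for SEMA5A, 2.31 for TAS2R14 and 2.63 for ATP13A3. Values below 0 were −0.60 for ODC1, −0.84 for FTL, −0.87 for PMAIP1, −0.97 for URI1, −1.14 for JTB and −1.14 for STARD7. Wider ones were −1.17 for each of 2 probe sets of TCF3, −1.24 for INHBC, −1.30 for AHR, −1.59 for DAZAP1 and −2.66 for MYL10. For ITM2B, 1 of the GM15510 arrays at 7.5 cGy had a signal of 607, against 109 and 111 on the other two.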

How the results depend on the processing

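The main counts were 102 higher and 88 lower for the mean, 429 in GM15036, 238 in GM15510, 412 for the interaction, 11 called in both lines with the same sign and 20 with opposite signs, and a same sign in 49.67% of probe sets. Median centring added 4 to unscaled signals, so its counts do not reflect scaling alone. It gave 1 higher for the mean, 7 in GM15510, 108 for the interaction, 0 and 0 called in both lines, and 54.91%. Centring after scaling gave 17 higher, 272 in GM15036, 83 in GM15510, 198 for the interaction, 0 and 6 in both lines, and 51.38%. Without a filter there were 62 higher, 158 in GM15510, and 3 and 12 in both lines, and with the filter at the 60th percentile 154 higher and 132 lower. eBayes without a trend gave 26 higher, 26 lower, 230, 71 and 259 calls, and 0 and 5 in both lines. Array weights gave 182 higher, 188 lower, 514 in GM15510, 648 for the interaction and 45 opposite in both lines. The 12 arrays alone gave 3 and 11 in both lines. Brightness as a covariate gave 23 higher, 16 lower, 134 in GM15036, 2 with the same sign in both lines, and 48.08%. The ACTB ratio gave 39 higher, 47 lower, 167 in GM15036, and 1 and 12 in both lines. The additive fit gave 3 higher and 0 lower. For these counts the cause was not tested, apart from the fewer arrays or probe sets of some settings.

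With single arrays left out, counts ranged from 44 to 128 higher, 33 to 133 lower, 185 to 498 in GM15036, 77 to 250 in GM15510, 276 to 450 for the interaction, 1 to 11 and 7 to 18 called in both lines, and the same sign from 48.86% to 50.6%. Same-numbered arrays did not deviate together (correlations of −0.0530 to 0.0126), which does not settle whether the numbers pair the samples. In GM15510 replicate 3 had the lowest ACTB ratio at 1, 5 and 7.5 cGy (3.18, 3.43 and 3.35), but not at 2.5 and 10 cGy. With the replicate block there were 88 higher, 66 lower, 408, 206 and 393 calls, and 8 and 19 in both lines.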
